A study of Mus musculus with 24 samples.

Results

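*Tiparp*, *Arl5b*, *Ier2*, *Ier5*, *Csrnp1*, *Midn* and *Rasl11b* are 7 of the 51826 genes in a count table from mouse dorsal hippocampus. They were chosen on measured values, for their rise with learning in these libraries, so their change from homecage to trained mice, any difference between such changes and any comparison that shares the WT libraries are given as descriptions, with no test for the 7. Each was found by its versioned Ensembl identifier and its GENCODE M21 symbol, and all 7 passed the filter on low counts in both experiments. The 24 libraries come from 2-4 months old male C57BL/6j mice, either wild type (WT) or CBP KIX/KIX, which carry 3 point mutations in the KIX domain of the coactivator CBP in every cell of the body. The published methods instead name both male and female mice, and the sex of these mice was not checked here. The WT mice were littermates of the CBP KIX/KIX mice.

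RNA-Seq 1 used total RNA after ribosomal transcripts had been removed, and holds 3 groups, each of 3 libraries. These are WT mice kept in the homecage, WT mice killed 1 h after training on the third day in the Morris water maze (MWM), and CBP KIX/KIX mice treated in the same way. RNA-Seq 2 was made from polyA RNA and holds 4 groups. These are 3 WT and 4 CBP KIX/KIX mice that stayed in the homecage with handling but no shock, and 4 WT and 4 CBP KIX/KIX mice killed 1 h after contextual fear conditioning (CFC), in which a mouse learns to link a place with a single foot shock. No CBP KIX/KIX homecage mouse was sequenced in RNA-Seq 1. The experiments differ in task, in library type and in run at once, and these cannot be told apart.

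Immediate early genes are transcribed within minutes of neuronal activity without new protein being made first, and *Fos*, *Arc* and *Egr1* are those best known from the hippocampus after learning. Many of them are switched on by CREB, which binds the cAMP response element (CRE) in promoters and, once phosphorylated, recruits CBP through its KIX domain. *Ier2*, *Ier5* and *Csrnp1* encode nuclear proteins of the early response, and IER5 is known to act on the heat shock factor HSF1. *Midn* encodes midnolin, which carries short-lived nuclear proteins such as Fos and Egr1 to the proteasome. *Tiparp* encodes an ADP-ribosyltransferase that is a target and a repressor of the aryl hydrocarbon receptor (AHR). *Arl5b* and *Rasl11b* encode small GTPases, the first of them at the trans-Golgi network.

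The authors deposited a raw count per gene and library. The total count ranged from 38174044 to 65709282 in RNA-Seq 1 and from 15385836 to 46056290 in RNA-Seq 2, where replicates 1 and 2 (30143949 to 46056290) were deeper than replicates 3 and 4 (15385836 to 20568337). Levels are CPM, counts scaled to a common library size with upper-quartile normalization, and the amount given by 3 counts was 0.0539 to 0.0960 CPM in RNA-Seq 1, against 0.0574 to 0.176 CPM in RNA-Seq 2, counting error alone. The lowest count of any of the 7 genes in any library was 56, for *Ier2*. A gene is called where the adjusted p of an edgeR fit over all genes tested is under 0.05, and an error given after ± on the log2 scale is the standard error (SE).

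Several libraries stood apart from the others of their group, and 4 of them are described first. A fit within an experiment shares its estimate of error over all groups of that experiment, so these libraries also bear on the SE of comparisons that they are not part of, for which fits of the compared groups alone are given too. The first is replicate 3 of the CBP KIX/KIX homecage mice. It was the highest of its 4 libraries for 6 of the 7 genes (85.7%) and for 12 of 12 well-known activity-regulated genes, with 11 of those 12 more than 2-fold above the mean of the rest, while it was the highest for 17.1% of all 18851 genes tested. *Fos* was at 102.3 CPM in this library and at 2.52, 1.62 and 4.32 CPM in replicates 1, 2 and 4. Its summed level of the 5 choroid plexus markers, of which *Ttr* was the most abundant, was 2491 CPM, against 211.7, 114.6 and 724.2 CPM in the same 3 replicates. In bulk tissue, fewer cells of a type and less RNA per cell cannot be told apart. What led this homecage mouse to high levels of activity-regulated genes was not tested.

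The second is replicate 3 of the WT homecage mice of RNA-Seq 1. Its summed choroid plexus markers were at 1767 CPM, against 146.5 and 159.1 CPM in replicates 1 and 2. Its 4 neuronal markers summed to 3989 CPM, against 5778 and 6275 CPM, and its 3 CA1 markers to 619.5 CPM, against 944.8 and 1187 CPM. Every marker gene of these lists was above 0 in every library. WT homecage replicate 2 of RNA-Seq 2 also had summed choroid plexus markers of 1557.5 CPM, against 25.7 and 27.8 CPM in replicates 1 and 3. Choroid plexus markers varied within the trained groups too, from 32.8 to 3852 CPM over the 4 WT CFC libraries, so they do not single out these libraries.

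The remaining library is replicate 4 of the CBP KIX/KIX homecage mice. Its 4 astrocyte markers summed to 2253 CPM, against 971.2, 1212 and 1474 CPM in replicates 1 to 3, and its 2 interneuron markers, with *Gad1* the most abundant, to 646.5 CPM, against 441.6, 438.5 and 467.5 CPM. Its 3 CA1 markers had the lowest sum of the group, at 200.8 CPM, against 316.8, 282.6 and 234.2 CPM. *Ier5* was highest in this library. The 4 astrocyte markers did not move as a set in this group. Against WT homecage mice *Gfap* and *Aqp4* had values above 0, and *Aldh1l1* and *Slc1a3* below.

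*Tiparp* was at 6.63, 7.51 and 9.67 CPM in the WT homecage libraries of RNA-Seq 1 and at 12.95, 14.4 and 11.6 CPM in the WT MWM libraries. In RNA-Seq 2 it was at 14.6, 11.9 and 16.5 CPM in WT homecage mice and at 20.5, 21.1, 23.0 and 22.65 CPM in WT CFC mice. In both experiments every WT trained library was above every WT homecage library. In CBP KIX/KIX mice *Tiparp* was at 13.9, 18.1 and 12.8 CPM after MWM, at 19.1, 19.6, 22.2 and 20.5 CPM after CFC, and at 13.2, 12.2, 52.5 and 18.6 CPM in the homecage. The trained CBP KIX/KIX libraries overlapped with the trained WT libraries in both experiments, and homecage replicate 3 was higher than any other library in the study.

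*Arl5b* was at 32.1, 31.1 and 30.5 CPM in WT MWM mice, above the 22.5, 20.8 and 25.1 CPM of WT homecage mice. The CBP KIX/KIX MWM libraries, at 28.5 to 31.45 CPM, overlapped with the WT MWM libraries. In RNA-Seq 2 the WT homecage libraries lay between 18.0 and 23.0 CPM and the WT CFC libraries between 22.1 and 28.6 CPM, with an overlap of these groups. *Rasl11b* showed the same order, at 27.7 to 38.55 CPM in WT homecage and 40.2 to 47.3 CPM in WT MWM mice of RNA-Seq 1, with no overlap. In RNA-Seq 2 its WT homecage (43.4 to 52.35 CPM) and WT CFC (49.5 to 53.5 CPM) libraries overlapped. Its mean in WT MWM mice (44.1 ± 3.62 CPM, SD, n = 3) was above that in CBP KIX/KIX MWM mice (38.8 ± 1.44 CPM, SD, n = 3) by more than either SD.

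*Ier2* was at 3.62, 3.90 and 3.29 CPM in WT homecage and at 8.32, 6.96, 7.57 and 7.85 CPM in WT CFC mice, but at 5.89, 7.21 and 3.77 CPM in WT homecage and 6.48, 7.54 and 5.555 CPM in WT MWM mice. The groups of RNA-Seq 2 did not overlap and those of RNA-Seq 1 did. *Csrnp1* was at 6.77, 6.82 and 6.46 CPM in WT homecage and 11.8, 9.50, 9.91 and 11.3 CPM in WT CFC mice. In RNA-Seq 1 its WT homecage libraries (28.1, 30.7 and 17.3 CPM) enclosed the WT MWM libraries (23.9, 28.8 and 22.6 CPM). *Midn* was at 29.7 to 38.1 CPM in WT homecage and 40.5 to 48.1 CPM in WT CFC mice, without overlap, and at 51.4 to 80.7 and 60.3 to 69.8 CPM in WT homecage and WT MWM mice. For all 3 genes replicate 3 was the lowest WT homecage library of RNA-Seq 1.

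*Ier5* went against the description of these genes as learning-induced. It was at 73.0, 73.3 and 62.3 CPM in WT homecage and 72.8, 67.2 and 67.8 CPM in WT MWM mice, and at 46.7, 38.4 and 43.2 CPM in WT homecage and 51.0, 47.5, 39.55 and 35.6 CPM in WT CFC mice. Its mean after training exceeded that of the homecage by less than the SD of either group in RNA-Seq 2 and was not higher in RNA-Seq 1. The libraries with the highest *Ier5* of RNA-Seq 2 were CBP KIX/KIX homecage replicates 3 and 4, at 75.9 and 94.0 CPM, while replicates 1 and 2 were at 39.2 and 57.0 CPM.

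**Figure D1:**
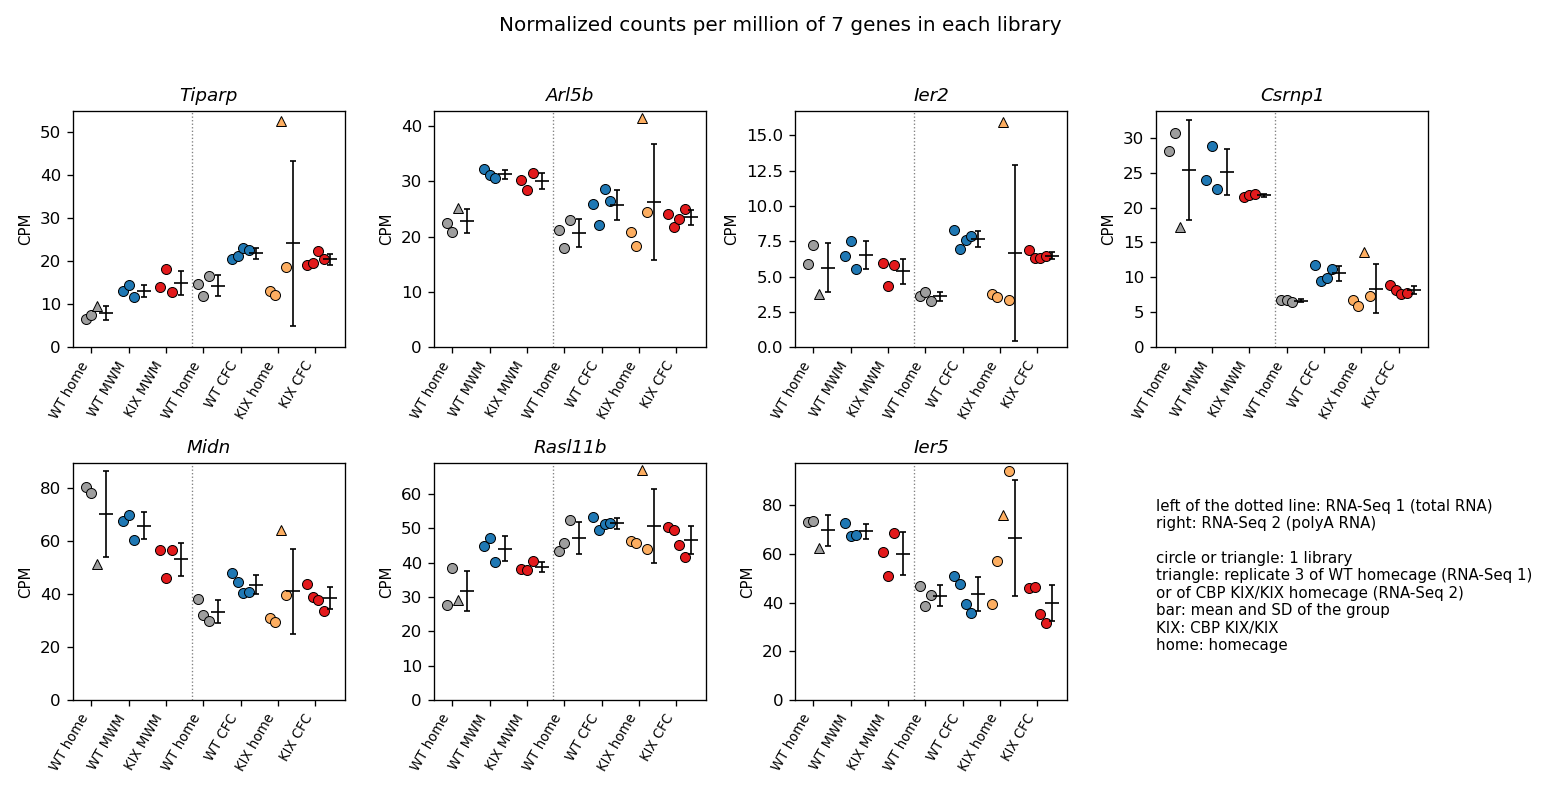
Level of each of the 7 genes (y axis, normalized CPM) in each of the 24 libraries, by group, with bars for the group mean and SD. The 3 *Tiparp* libraries of WT MWM mice (11.6 to 14.4 CPM) and the 4 of WT CFC mice (20.5 to 23.0 CPM) lie above those of their WT homecage mice, and replicate 3 of the CBP KIX/KIX homecage mice (a triangle) is the highest of its group for 6 genes but not for *Ier5*.

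Levels of different genes are compared here per length of exon, as RPKM, which is CPM per kilobase of exon. In WT homecage mice of RNA-Seq 1 the mean level was 21.2 RPKM for *Ier5*, 16.3 for *Midn*, 14.7 for *Rasl11b*, 7.30 for *Csrnp1*, 3.70 for *Ier2*, 2.19 for *Arl5b* and 1.82 RPKM for *Tiparp*. In polyA RNA of RNA-Seq 2 *Rasl11b* led at 21.8 RPKM, and *Csrnp1* was the lowest at 1.93 RPKM. The change in rank goes with library type and sequencing run, so groups are ordered only within an experiment.

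Within RNA-Seq 1, *Tiparp* and *Arl5b* had both trained groups above WT homecage mice by more than the larger SD, while the trained groups did not differ from each other beyond it. *Ier5*, *Csrnp1* and *Midn* had WT homecage and WT MWM mice level with each other, and CBP KIX/KIX MWM mice below WT MWM mice by more than the larger SD. *Rasl11b* had both trained groups above WT homecage mice, and WT MWM above CBP KIX/KIX MWM mice, each by more than the larger SD. For *Ier2* no neighbouring groups differed beyond the SD. Within RNA-Seq 2, the WT homecage mean was the lowest of the 4 groups for *Tiparp*, *Arl5b*, *Ier2*, *Csrnp1* and *Midn*, with all libraries kept. CBP KIX/KIX CFC mice were above it by more than the larger SD for these 5 genes. Without CBP KIX/KIX homecage replicate 3, that genotype differed from WT homecage mice by -0.03 log2 units for *Ier2*, *Csrnp1* and *Midn*. For *Tiparp* and *Arl5b* it was 0.02. The order of the homecage groups thus rests on that library. No neighbours of *Ier5* or *Rasl11b* differed beyond the SD there. The *Tiparp* mean of WT CFC mice was above that of CBP KIX/KIX CFC mice by 1.44 CPM, against a larger SD of 1.37 CPM.

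The first question is how far each gene moved from homecage to training in WT mice, the change for which the genes were chosen. Over both experiments *Tiparp* was higher by 0.67 ± 0.07 log2 units (1.59-fold, in 7 of 7 trained mice), *Ier2* by 0.66 ± 0.10 (6 of 7) and *Arl5b* by 0.38 ± 0.04 (7 of 7). *Csrnp1* was higher by 0.33 ± 0.07 (5 of 7), *Rasl11b* by 0.30 ± 0.06 (7 of 7) and *Midn* by 0.17 ± 0.04 (4 of 7). This fit takes the effect as the same in both experiments, after factors of unwanted variation, so its SE do not measure how far the experiments differed. *Midn* was at -0.11 ± 0.14 after MWM and 0.40 ± 0.20 after CFC, and *Csrnp1* at -0.03 ± 0.16 and 0.68 ± 0.21. *Ier5* differed by 0.02 ± 0.06, with 3 of 7 trained mice above the homecage mean. The edgeR fit, with 3 factors of unwanted variation, called 229 of 22038 genes (1.04%), and 5 of the 7 genes are among them by the way they were chosen, so nothing is read from that count. Without the factors it called 9 genes, and with replicate number as a block 930. The numbers were taken to pair WT homecage with WT trained libraries in both experiments, from their correlation alone. With 1 library left out in turn it called between 34 genes (without WT homecage replicate 1 of RNA-Seq 1) and 2277 genes (without replicate 3 of that group). Without that replicate 3 *Tiparp* was at 0.74 ± 0.06, *Ier2* at 0.61 ± 0.10, *Arl5b* at 0.42 ± 0.05, *Csrnp1* at 0.28 ± 0.07, *Rasl11b* at 0.27 ± 0.06, *Midn* at 0.12 ± 0.04 and *Ier5* at -0.00 ± 0.06. Without WT homecage replicate 2 of RNA-Seq 2 edgeR called 289 genes, with *Ier2* at 0.64 ± 0.10, *Tiparp* at 0.62 ± 0.07, *Arl5b* at 0.35 ± 0.05, *Rasl11b* at 0.33 ± 0.05, *Csrnp1* at 0.30 ± 0.07, *Midn* at 0.13 ± 0.04 and *Ier5* at -0.02 ± 0.07.

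The values of each experiment are given side by side. After MWM the WT mice had *Tiparp* higher by 0.67 ± 0.18, *Rasl11b* by 0.45 ± 0.12 and *Arl5b* by 0.42 ± 0.10, each in 3 of 3 mice, while *Ier2* (0.20 ± 0.20), *Ier5* (-0.03 ± 0.10), *Csrnp1* (-0.03 ± 0.16) and *Midn* (-0.11 ± 0.14) differed by about their SE or less. After CFC the WT mice had *Ier2* higher by 1.09 ± 0.42, *Csrnp1* by 0.68 ± 0.21, *Tiparp* by 0.64 ± 0.37, *Midn* by 0.40 ± 0.20, *Arl5b* by 0.34 ± 0.20 and *Rasl11b* by 0.15 ± 0.12, each in 4 of 4 mice. *Ier5* differed by 0.05 ± 0.22 there. These SE take in CBP KIX/KIX homecage replicate 3, and with the WT homecage and WT CFC libraries fitted alone *Ier2* was at 1.09 ± 0.11, *Csrnp1* at 0.68 ± 0.10, *Tiparp* at 0.65 ± 0.09, *Midn* at 0.40 ± 0.09, *Arl5b* at 0.34 ± 0.09, *Rasl11b* at 0.16 ± 0.06 and *Ier5* at 0.06 ± 0.11. Without WT homecage replicate 2 *Ier2* was at 1.18 ± 0.51, *Csrnp1* at 0.72 ± 0.25, *Tiparp* at 0.54 ± 0.44, *Midn* at 0.40 ± 0.24, *Arl5b* at 0.27 ± 0.24, *Rasl11b* at 0.16 ± 0.14 and *Ier5* at -0.00 ± 0.25.

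After MWM edgeR called 3 of 22276 genes (0.0135%), namely *Egr2*, *Fos* and *Neat1*, and 0 of the 7, with an unadjusted p under 0.05 for 2418 genes and 3 of the 7, while DESeq2 called 80 genes and 3 of the 7. With replicate number as a block edgeR called 1 gene, *Neat1*. It called 0 genes without WT homecage replicate 1, WT MWM replicate 1 or WT MWM replicate 2, 7 without WT homecage replicate 2 and 2418 without WT homecage replicate 3. Without that last library *Tiparp* was at 0.87 ± 0.17, *Arl5b* at 0.52 ± 0.08, *Rasl11b* at 0.40 ± 0.12, *Ier2* at -0.01 ± 0.18, *Ier5* at -0.09 ± 0.10, *Csrnp1* at -0.23 ± 0.11 and *Midn* at -0.28 ± 0.09. After CFC edgeR called 0 of 18851 genes (0%) and DESeq2 0, with an unadjusted p under 0.05 for 450 genes and 2 of the 7, and the fit of the WT homecage and WT CFC libraries alone called 21 genes, with an unadjusted p under 0.05 for 708 genes and 6 of the 7. These libraries chose the 7 genes, so nothing is read from the counts among them.

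The difference between the WT changes, CFC less MWM, is made of the same libraries and is a description too. It was 0.89 ± 0.26 for *Ier2*, 0.71 ± 0.22 for *Csrnp1* and 0.51 ± 0.18 for *Midn*. *Tiparp* (-0.02 ± 0.20), *Arl5b* (-0.08 ± 0.14) and *Ier5* (0.08 ± 0.15) differed by less than their SE, and *Rasl11b* by -0.30 ± 0.14. Without WT homecage replicate 3 of RNA-Seq 1 *Ier2* was at 1.10 ± 0.20, *Csrnp1* at 0.91 ± 0.15, *Midn* at 0.67 ± 0.13, *Ier5* at 0.14 ± 0.15, *Arl5b* at -0.18 ± 0.12, *Tiparp* at -0.23 ± 0.16 and *Rasl11b* at -0.25 ± 0.15. In the same order they were at 0.97 ± 0.28, 0.75 ± 0.25, 0.51 ± 0.20, 0.02 ± 0.16, -0.16 ± 0.14, -0.13 ± 0.20 and -0.29 ± 0.16 without WT homecage replicate 2 of RNA-Seq 2. The edgeR fit called 0 of the 7 and 3 of 22038 genes (0.0136%), namely *Btg2*, *Fos* and *Sik1*, with an unadjusted p under 0.05 for 1645 genes and 3 of the 7, and DESeq2 called 29 genes and 0 of the 7. Nothing is read from the counts among the 7. Without that replicate 3 edgeR called 892 genes, with 3 factors of unwanted variation 176 and with replicate number as a block 6. It called 0 genes without WT MWM replicate 1 or 2, WT CFC replicate 1, 3 or 4, or WT homecage replicate 1 or 3 of RNA-Seq 2, 1 without WT homecage replicate 1 or WT MWM replicate 3 of RNA-Seq 1 and 6 without WT homecage replicate 2 of RNA-Seq 1, and *Tiparp* ranged from -0.23 (without WT homecage replicate 3 of RNA-Seq 1) to 0.10 (without replicate 1 of that group).

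In CBP KIX/KIX mice the comparison of CFC with homecage rests on homecage replicate 3. With all 4 homecage libraries *Tiparp* differed by -0.18 ± 0.34, *Arl5b* by -0.11 ± 0.19, *Rasl11b* by -0.08 ± 0.11, *Midn* by -0.04 ± 0.19, *Csrnp1* by 0.01 ± 0.19 and *Ier2* by 0.03 ± 0.38. Without replicate 3 *Ier2* was higher after CFC by 0.89 ± 0.10, *Tiparp* by 0.53 ± 0.12, *Csrnp1* by 0.34 ± 0.10, *Midn* by 0.26 ± 0.11, *Arl5b* by 0.19 ± 0.10 and *Rasl11b* by 0.08 ± 0.06. The 4 *Ier2* libraries of CBP KIX/KIX CFC mice, at 6.87, 6.31, 6.30 and 6.49 CPM, were above homecage replicates 1, 2 and 4, at 3.80, 3.56 and 3.35 CPM, and below replicate 3, at 16.0 CPM. The rule by which the genes were chosen does not say whether these mice were looked at too, so this is a description as well.

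*Ier5* differed the other way in CBP KIX/KIX mice, lower after CFC by -0.69 ± 0.20 with all libraries and -0.61 ± 0.22 without replicate 3, but -0.49 without replicate 4, with 4 of 4 CFC libraries (45.9, 46.3, 35.4 and 31.5 CPM) below the homecage mean. The summed level of the 4 astrocyte markers followed the same order over the homecage libraries, at 971.2, 1212, 1474 and 2253 CPM in replicates 1 to 4. Over the CFC libraries the sum lay between 859.6 and 992.2 CPM. The markers did not move as a set. Between the genotypes in the homecage *Gfap* and *Aqp4* had values above 0, and *Slc1a3* and *Aldh1l1* below. The part of these markers in the *Ier5* values was not tested.

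With all libraries edgeR called 0 of 18851 genes (0%) and 0 of the 7 in this comparison, with an unadjusted p under 0.05 for 2457 genes and 1 of the 7, *Ier5*. DESeq2 called 300 genes and 0 of the 7, and with replicate number as a block edgeR called 4 genes (*C4b*, *Ociad2*, *Rxfp3* and *Zmym1*). It called 16 genes without homecage replicate 3 and 999 without homecage replicate 1, where *Ier5* was at -0.88 ± 0.16. Without homecage replicate 4 it called 0 genes.

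The response to CFC is set between the genotypes as an interaction, the CBP KIX/KIX change less the WT change. The genes were chosen for their rise with learning, and a high WT change favours values below 0, so this is a description with no test for the 7. *Ier2* had -1.07 ± 0.57, *Tiparp* -0.83 ± 0.50, *Ier5* -0.74 ± 0.30, *Csrnp1* -0.67 ± 0.29, *Arl5b* -0.45 ± 0.28, *Midn* -0.44 ± 0.28 and *Rasl11b* -0.23 ± 0.16. Without CBP KIX/KIX homecage replicate 3 the values were -0.21 ± 0.14 for *Ier2*, -0.11 ± 0.18 for *Tiparp*, -0.35 ± 0.14 for *Csrnp1*, -0.15 ± 0.14 for *Arl5b*, -0.14 ± 0.15 for *Midn* and -0.08 ± 0.09 for *Rasl11b*, while *Ier5* was at -0.66 ± 0.31. Without homecage replicate 4 *Ier5* was at -0.55. The values lay between -1.16 ± 0.64 (*Ier2*) and -0.24 ± 0.18 (*Rasl11b*) without WT homecage replicate 2. The edgeR fit called 0 of 18851 genes (0%), with an unadjusted p under 0.05 for 903 genes and 2 of the 7 (*Ier5* and *Csrnp1*), and DESeq2 called 1 gene, *Ngb*, and 0 of the 7. With replicate number as a block edgeR called 0 genes, with an unadjusted p under 0.05 for 955 genes and 0 of the 7. Nothing is read from the counts among the 7. Without CBP KIX/KIX homecage replicate 1 edgeR called 63 genes.

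The next values compare the genotypes after learning. WT trained libraries took part in choosing these genes for high values, which favours lower values in the other genotype, so these are descriptions too. Over both experiments *Csrnp1* was at -0.28 ± 0.06 (0.82-fold, lower in 7 of 7 CBP KIX/KIX mice), *Midn* at -0.23 ± 0.04 (6 of 7) and *Rasl11b* at -0.15 ± 0.03 (7 of 7). For *Csrnp1* every CBP KIX/KIX library was below every WT library in both experiments, at 21.5, 21.8 and 21.9 CPM after MWM and 8.94, 8.16, 7.69 and 7.78 CPM after CFC. For *Midn* that held after MWM, at 56.8, 46.0 and 56.7 CPM against 67.7, 69.8 and 60.3 CPM, but not after CFC, at 44.0, 38.9, 37.8 and 33.55 CPM against 48.1, 44.6, 40.5 and 41.0 CPM.

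*Ier2* was at -0.25 ± 0.07 (lower in 7 of 7 mice), *Ier5* at -0.16 ± 0.04 (5 of 7), *Arl5b* at -0.08 ± 0.04 (6 of 7) and *Tiparp* at 0.04 ± 0.06 (higher in 3 of 7). The edgeR fit, with 4 factors of unwanted variation, called 610 of 21489 genes (2.84%), 356 of them lower and 254 higher, with 3 of the 7 (*Csrnp1*, *Midn* and *Rasl11b*) among them, and an unadjusted p was under 0.05 for 3911 genes and 5 of the 7. Nothing is read from these counts among the 7.

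The count of genes called rested on the factors. Without them edgeR called 4 genes (*Alcam*, *Nptx2*, *Papss2* and *Slc25a34*), with *Csrnp1* at -0.28 ± 0.07, and with GC-content normalization it called 252. DESeq2 called 936 genes, and with replicate number as a block edgeR called 2787, though replicate numbers were not taken as pairs between the genotypes. With 1 library left out in turn, *Csrnp1* ranged from -0.32 to -0.25, *Ier2* from -0.28 to -0.20, *Midn* from -0.26 to -0.19, *Ier5* from -0.20 to -0.11, *Rasl11b* from -0.17 to -0.12 and *Arl5b* from -0.11 to -0.06. *Tiparp* changed sign without CBP KIX/KIX MWM replicate 2 (-0.04) or WT MWM replicate 3 (-0.00). The count of genes was 234 without CBP KIX/KIX MWM replicate 2, 317 without replicate 1 of that group, 316 without WT MWM replicate 1, 389 without CBP KIX/KIX CFC replicate 4, 385 without WT CFC replicate 1 and 1023 without CBP KIX/KIX CFC replicate 1.

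Taken by experiment, *Csrnp1* was at -0.19 ± 0.16 after MWM and -0.37 ± 0.19 after CFC, *Midn* at -0.29 ± 0.14 and -0.17 ± 0.19, and *Rasl11b* at -0.16 ± 0.12 and -0.13 ± 0.11, so all 3 were lower in both. *Tiparp* was at 0.22 ± 0.17 after MWM and -0.09 ± 0.34 after CFC, of opposite sign, and *Arl5b* at -0.04 ± 0.10 and -0.13 ± 0.19. Without CBP KIX/KIX MWM replicate 2 *Tiparp* was at 0.04 after MWM. Without WT MWM replicate 2 *Csrnp1* was at -0.08 after MWM. After MWM edgeR called 0 of 22276 genes (0%), with an unadjusted p under 0.05 for 1286 genes and 0 of the 7, and DESeq2 called 7 genes and 0 of the 7. With these groups fitted alone edgeR called 3 genes and 0 of the 7, with an unadjusted p under 0.05 for 2235 genes and 1 of the 7, and *Midn* was at -0.28 ± 0.08, *Ier2* at -0.25 ± 0.15, *Ier5* at -0.18 ± 0.09, *Csrnp1* at -0.18 ± 0.10, *Rasl11b* at -0.16 ± 0.08, *Arl5b* at -0.03 ± 0.07 and *Tiparp* at 0.23 ± 0.14. After CFC edgeR called 2 of 18851 genes (0.0106%), namely *Papss2* and *Slc25a34*, and 0 of the 7, with an unadjusted p under 0.05 for 441 genes and 0 of the 7, and DESeq2 called 4 genes and 0 of the 7. With the WT and CBP KIX/KIX CFC libraries fitted alone, free of CBP KIX/KIX homecage replicate 3, edgeR called *Papss2* and 0 of the 7, with an unadjusted p under 0.05 for 608 genes and 4 of the 7. *Csrnp1* was at -0.38 ± 0.08 in that fit, *Ier2* at -0.24 ± 0.08, *Midn* at -0.18 ± 0.07, *Rasl11b* at -0.14 ± 0.05, *Arl5b* at -0.13 ± 0.08, *Ier5* at -0.13 ± 0.13 and *Tiparp* at -0.10 ± 0.07. Nothing is read from the counts among the 7.

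Some cell type markers were called in the pooled comparison of genotypes, but without the factors of unwanted variation no marker was. Of 3 CA1 markers all had negative values and *Fibcd1* was called lower (-0.30 ± 0.07, adjusted p = 0.022, 7 of 7 mice), with sums of 1065, 1041 and 856.3 CPM in WT MWM mice and 754.3, 782.0 and 744.4 CPM in CBP KIX/KIX MWM mice. After CFC the sums were 351.5, 303.7, 317.6 and 283.4 CPM in WT and 304.0, 266.5, 286.8 and 253.6 CPM in CBP KIX/KIX mice. Of 4 astrocyte markers *Gfap* (-0.29 ± 0.04, adjusted p = 0.0019, lower in 6 of 7 mice) and *Aldh1l1* (-0.26 ± 0.04, adjusted p = 0.0043, lower in 7 of 7 mice) were called lower, while *Aqp4* and *Slc1a3* were both at 0.04. Of 4 dentate gyrus markers *Calb1* (0.35 ± 0.06, adjusted p = 0.0051, higher in 7 of 7 mice) and *Prox1* (0.21 ± 0.05, adjusted p = 0.042, higher in 6 of 7 mice) were called higher, as was *Iyd* of 3 CA3 markers (0.44 ± 0.11, adjusted p = 0.042, higher in 7 of 7 mice), the other 2 being *Cpne4* (0.10) and *Grik4* (-0.08). The 5 choroid plexus markers had a median of -0.50 with 0 called, but of -0.08 without the factors of unwanted variation (2 of 5 above 0), of 0.44 after MWM (5 of 5 above 0) and of -0.46 after CFC (0 of 5 above 0). None of the 4 neuron, 2 interneuron, 4 oligodendrocyte, 4 microglia, 3 endothelial and 2 blood markers was called. The part of these markers in the values of the 7 genes was not tested.

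In the homecage the genotypes were compared within RNA-Seq 2, and for 6 of the 7 genes the values rest on replicate 3 of the CBP KIX/KIX mice. With it *Ier2* was at 0.83 ± 0.43, *Tiparp* at 0.73 ± 0.38, *Arl5b* at 0.33 ± 0.20, *Csrnp1* at 0.30 ± 0.21, *Midn* at 0.27 ± 0.20 and *Rasl11b* at 0.10 ± 0.12. Without it all 6 lay between -0.06 and 0.02, with SE from 0.07 to 0.13. *Ier5* was at 0.62 ± 0.22 (higher in 3 of 4 mice) with all libraries, 0.54 ± 0.23 without replicate 3 and 0.42 without replicate 4, which had its highest level. WT homecage libraries took part in choosing the genes for low values, which favours higher values in the other genotype, so these are descriptions. Without WT homecage replicate 2 *Ier2* was at 0.92 ± 0.51, *Tiparp* at 0.63 ± 0.44, *Ier5* at 0.56 ± 0.26, *Csrnp1* at 0.34 ± 0.25, *Midn* at 0.27 ± 0.24, *Arl5b* at 0.26 ± 0.24 and *Rasl11b* at 0.11 ± 0.14.

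The edgeR fit of the homecage called 5 of 18851 genes (0.0265%), namely *Aldh6a1*, *Nr1d2*, *Papss2*, *Rxfp3* and *Slc25a34*, and 0 of the 7, with an unadjusted p under 0.05 for 1849 genes and 1 of the 7, *Ier5*. DESeq2 called 58 genes and 0 of the 7, and nothing is read from the counts among the 7. Without CBP KIX/KIX homecage replicate 1 edgeR called 445 genes, with *Ier5* at 0.80 ± 0.17, and it called 1 gene, *Papss2*, without CBP KIX/KIX homecage replicate 2 or 3 or WT homecage replicate 2 or 3, and 2 genes without CBP KIX/KIX homecage replicate 4 or WT homecage replicate 1. No marker was called in this comparison. Of the 4 astrocyte markers *Gfap* (1.32 ± 0.34) and *Aqp4* (0.42 ± 0.18) were above 0 and *Aldh1l1* (-0.01 ± 0.10) and *Slc1a3* (-0.03 ± 0.04) below, and the 3 CA1 markers were all below 0, with a median of -0.40. The 5 choroid plexus markers had a median of 0.53 (5 of 5 above 0). Without CBP KIX/KIX homecage replicate 3 their median was -0.81 (0 of 5 above 0), and that of the CA1 markers was -0.33. The genes named beside the 7 in counts of 5 or fewer were chosen after their values were seen.

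**Figure D2:**
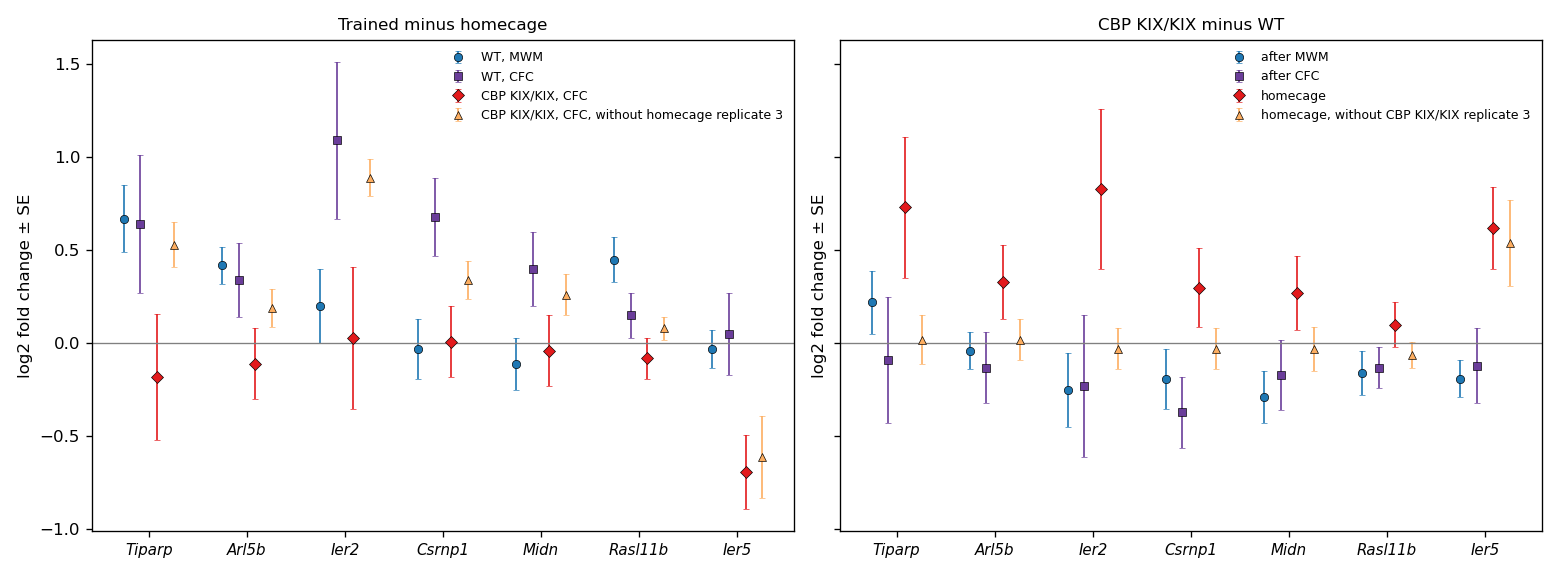
Log2 fold change (y axis) of each of the 7 genes with its SE as a bar, for trained against homecage mice on the left and for CBP KIX/KIX against WT mice on the right. The homecage difference of *Tiparp* is 0.73 with replicate 3 of the CBP KIX/KIX homecage mice and 0.02 without it, while that of *Ier5* is 0.62 and 0.54, with its highest level in replicate 4.

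The count of *Crebbp*, the gene of CBP, does not check the genotype, since the mutations change bases and not the gene's presence. *Crebbp* had mean levels of 190.6 to 219.9 CPM in the groups of RNA-Seq 1, against 62.2 to 65.2 CPM in those of RNA-Seq 2, and it was called in none of the comparisons (-0.02 between the genotypes after learning).

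Lists of related genes, chosen with earlier results of these data known, set these values in context. In the pooled WT comparison of training with homecage, 11 of 12 well-known activity-regulated genes were called higher, with a median of 0.83 against -0.03 for all genes tested. Examples are *Fos* (1.93 ± 0.20), *Arc* (1.28 ± 0.11) and *Egr1* (0.97 ± 0.07), and *Btg2* was not called. The median of the 7 genes was 0.33. Of 24 other rapid primary-response genes 8 were called higher, among them *Trib1* (0.37 ± 0.06), *Errfi1* (0.35 ± 0.05), *Coq10b* (0.31 ± 0.05) and *Plk3* (0.25 ± 0.05), with a median of 0.16. Without the factors of unwanted variation 6 of the 12 well-known and 0 of the 24 other rapid genes were called, and without WT homecage replicate 3 of RNA-Seq 1 it was 12 and 10.

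The relatives of the 7 genes by family were taken in the same comparison. Of 15, among them the GTPases *Arl5a* (0.10 ± 0.04) and *Rasl10b* (-0.14 ± 0.04) and the nuclear protein gene *Csrnp3* (0.09 ± 0.04), 0 were called, and their median was -0.10. Without WT homecage replicate 3 of RNA-Seq 1 these 3 were called, *Arl5a* and *Csrnp3* higher and *Rasl10b* lower. *Arl5a* and *Arl5b* thus had 0.10 and 0.38 in the same comparison, a difference that was not tested. Of 9 genes of the AHR pathway 8 were tested and 0 called, with a median of 0.01. *Hsp90ab1*, the gene of a chaperone of the receptor, was at -0.01 ± 0.04 and *Arnt*, that of its partner, at -0.01 ± 0.05, and without that library *Nqo1* was called higher. Of 8 genes of the HSF1 pathway the cochaperone gene *Dnajb1* was called higher (0.23 ± 0.04), with a median of 0.05 and the chaperone gene *Hspa8* at 0.12 ± 0.05. Without that library *Dnajb1* was called higher and *Hsf1* lower, and without the factors 0 of the 8.

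Of the marker lists in that comparison, *Folr1* of 5 choroid plexus markers was called higher (2.83-fold, in 4 of 7 mice), and all 5 had positive values. *Cldn5* of 3 endothelial markers was called lower (-0.49 ± 0.09, in 7 of 7 mice). None of the markers of neurons, CA1, CA3, the dentate gyrus, interneurons, astrocytes, oligodendrocytes, microglia or blood was called with all libraries. Without WT homecage replicate 3 of RNA-Seq 1, 4 of the 5 choroid plexus markers and the astrocyte marker *Slc1a3* were called higher, and the neuronal markers *Rbfox3* and *Camk2a*, *Prox1* of the dentate gyrus and *Cldn5* were called lower. Without the factors of unwanted variation no marker was called. The part of the markers in the values of the 7 genes was not tested.

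Between the genotypes after learning, 8 of the 12 well-known genes were called lower, with a median of -0.29, and *Fos* was at -0.51 ± 0.06 (adjusted p = 6.54e-04, 7 of 7 mice) and *Junb* at -0.31 ± 0.04 (adjusted p = 6.54e-04, 7 of 7 mice). *Arc* (-0.15 ± 0.04) and *Egr1* (-0.08 ± 0.05) were not called. The median of the 7 genes was -0.16 and that of all genes -0.01. Of the 24 other rapid genes 0 were called, with a median of -0.05, and of the 15 relatives 0, with a median of 0.07. *Dnajb1* was called lower of the 8 HSF1 genes (-0.20 ± 0.04, adjusted p = 0.017, 6 of 7 mice) and *Arnt2* of the 8 AHR genes tested (-0.19 ± 0.03, adjusted p = 0.0028, 6 of 7 mice). *Arnt2* encodes a partner of the receptor that is abundant in neurons. Without the factors of unwanted variation none of these list genes was called.

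With homecage replicate 3 of the CBP KIX/KIX mice, the well-known genes had a median of -0.20 from homecage to CFC in that genotype and 0 were called. Without it the median was 1.32 and 10 of 12 were called higher. In the interaction of genotype and CFC their median was -1.36 with it and 0.03 without it, and that of the other rapid genes -0.40 and -0.17. In the homecage comparison of genotypes their median was 1.10 with that library and -0.27 without it, and that of the other rapid genes 0.25 and 0.08. The median of the 7 genes in the same comparison was 0.33 with it and -0.03 without it.

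The genes with the most similar pattern were found by Pearson's r of log2 CPM over the 24 libraries, after removal of each experiment's mean, among 18262 other genes that passed the filter in both experiments. Libraries of the same experiment share a library type and a run, and depth differs between libraries. CBP KIX/KIX homecage replicate 3 is also among the 24, so these values are a description. *Tiparp* was most like *Errfi1* (0.913), *Arl5b* (0.910) and *Fbxo33* (0.896), and *Arl5b* most like *Tiparp* (0.910), *Errfi1* (0.880) and *Fbxo33* (0.869). *Tiparp* and *Arl5b* thus were in each other's nearest 2 genes.

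*Ier2* was most like *Junb* (0.959), *Egr1* (0.935) and *Npas4* (0.935), all of them activity-regulated transcription factor genes. *Csrnp1* was most like *Trib1* (0.907), *Ier2* (0.900) and *Plk3* (0.886), and *Midn* most like *Plk3* (0.910), *Csrnp1* (0.877) and *Trib1* (0.843). *Rasl11b* was most like *Dusp5* (0.855), *Dusp6* (0.822) and *Nfkbiz* (0.803), the first 2 of them phosphatases of MAP kinases. *Ier5* was most like *Rimbp2* (0.925), *Trnp1* (0.924) and *Vgf* (0.923), and its r with the other 6 genes lay between 0.09 (*Ier2*) and 0.48 (*Midn*). By this measure *Tiparp* and *Arl5b*, and *Ier2*, *Csrnp1* and *Midn*, stood close to each other, and *Ier5* stood apart. The genes were chosen for a rise in these same libraries, which favours high r among those that rose. Nothing is therefore read from this grouping, and r was not computed without CBP KIX/KIX homecage replicate 3.

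The genes lie on 7 chromosomes of GRCm38. *Tiparp* (ENSMUSG00000034640.9) is on chromosome 3 from 65528410 to 65555518, *Arl5b* (ENSMUSG00000017418.13) on chromosome 2 from 15049395 to 15082456, *Midn* (ENSMUSG00000035621.13) on chromosome 10 from 80148272 to 80158368 and *Rasl11b* (ENSMUSG00000049907.8) on chromosome 5 from 74195286 to 74199481, all on the plus strand. *Ier2* (ENSMUSG00000053560.4) is on chromosome 8 from 84661331 to 84662852, *Ier5* (ENSMUSG00000056708.5) on chromosome 1 from 155096361 to 155099636 and *Csrnp1* (ENSMUSG00000032515.8) on chromosome 9 from 119971163 to 119984658, on the minus strand. *Ier2* and *Ier5* have a single exon. The longest coding transcript has 6 exons in *Tiparp* and *Arl5b*, 4 in *Csrnp1* and *Rasl11b* and 9 in *Midn*.

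Whether the authors counted reads by strand is not stated, which matters where genes overlap. *Tiparp* shares 223 of its 4358 exon bases (5.1%) with the pseudogene *4931440P22Rik* on the opposite strand, and *Csrnp1* shares 224 of 3473 (6.4%) with the antisense gene *1700019L13Rik*. *Csrnp1* lies within the annotated span of the microglial gene *Cx3cr1*, on the same strand, with no exon base shared. *Arl5b* overlaps the spans of *Nsun6* and *Gm38257*, again with no exon base shared.

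Messages with many copies of ATTTA in the 3′ untranslated region are often short-lived, so this pentamer was counted in the longest coding transcript. *Csrnp1* had 5 in 1075 bases (4.65 per kb), *Tiparp* 9 in 1953 (4.61 per kb) and *Arl5b* 23 in 6152 (3.74 per kb), against a median of 1.35 per kb over 19744 genes. Of those genes 9.2%, 9.4% and 14.9% had at least as many per kb as *Csrnp1*, *Tiparp* and *Arl5b*. *Midn* (1.16 per kb), *Rasl11b* (1.11 per kb) and *Ier5* (0.93 per kb) were below the median, and *Ier2* had 0 in 755 bases.

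Since the comparison of genotypes concerns a CREB coactivator, promoters were searched on both strands in windows from 250 bases before to 50 bases after the transcription start. Windows of 6 of the 7 genes were matched by symbol in the RefSeq table used (GRCm38.p6), and *Ier2* was not matched. The full CRE, TGACGTCA, was in 1.79% of 32851 promoter windows and its half-site, TGACG, which the CRE contains on each strand, in 20.8%. The core of the AHR site, GCGTG, was in 32.4%, and the CArG box of serum response factor (CC, 6 bases of A or T, GG) in 1.63%. A match says that the letters are there and not that a factor binds.

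*Arl5b* was the only one of these 6 genes with the full CRE, at 15055199 to 15055206 on chromosome 2, with a further half-site at 15055216 to 15055220. The opposite-strand gene *Nsun6* reaches 15055069, next to this window, so the CRE lies upstream of *Nsun6* too. Likewise the *Csrnp1* half-site at 119983057 to 119983061 lies upstream of the opposite-strand *1700019L13Rik*, annotated from 119983146. Half-sites were also in all 4 promoter windows of *Csrnp1* (1, 2, 1 and 1 positions) and in the first of 2 windows of *Midn* (1 position). *Tiparp* had 1 AHR core, at 65528277 to 65528281 on chromosome 3, and no half-site, and *Csrnp1* had AHR cores in 2 of its 4 windows. The windows of *Ier5* and *Rasl11b* held none of these letters, and no window of the 6 genes held a CArG box. The sequences show the exon-free bases of the *Arl5b* window, and of the first *Csrnp1* and *Midn* windows, since these hold the CRE or a half-site. They are given 5′ to 3′ on the strand of the gene, with the CRE and the half-sites (TGACG, or CGTCA where it lies on the other strand) in capitals, for *Arl5b* at chr2:15055070-15055239 (plus strand), *Csrnp1* at chr9:119983024-119983145 (minus strand) and *Midn* at chr10:80148022-80148271 (plus strand).
Arl5b: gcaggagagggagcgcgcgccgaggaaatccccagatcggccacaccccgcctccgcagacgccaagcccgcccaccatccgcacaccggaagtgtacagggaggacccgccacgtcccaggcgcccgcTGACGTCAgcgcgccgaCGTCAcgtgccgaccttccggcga
Csrnp1: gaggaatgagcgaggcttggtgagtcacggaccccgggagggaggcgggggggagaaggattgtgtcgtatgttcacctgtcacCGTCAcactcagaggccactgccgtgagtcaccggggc
Midn: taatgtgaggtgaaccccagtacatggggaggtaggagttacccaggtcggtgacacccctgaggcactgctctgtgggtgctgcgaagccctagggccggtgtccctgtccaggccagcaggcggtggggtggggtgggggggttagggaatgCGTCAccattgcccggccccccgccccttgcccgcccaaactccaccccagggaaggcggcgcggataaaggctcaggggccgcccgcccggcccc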

How the data were processed

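Raw read counts per gene, made by the authors with STAR, SAMtools 1.6 and featureCounts 1.4.4 on mm10, were used as deposited for 51826 genes and 24 libraries. The authors did not state strand setting or annotation release. Identifiers of 51633 genes were matched to GENCODE M21. Each comparison was fitted across all genes with edgeR 4.0.16 in R 4.3.3 (quasi-likelihood F test, filterByExpr with a minimum count of 10, upper-quartile normalization, Benjamini-Hochberg adjustment, adjusted p under 0.05, two-sided). Fits over both experiments had experiment as a batch and RUVr factors, 3 for WT learning and 4 for genotype after learning, numbers taken from the published methods. The alternatives were DESeq2 1.42.0, TMM normalization, no filter, a replicate block, only the groups compared, a depth class, other numbers of RUVr factors, GC-content normalization over 10 bins, and each of 64 fits with 1 library left out. Deviations of same-numbered libraries from their group means correlated at over 0.1 in every pair of WT homecage with WT MWM (r of 0.11 to 0.18) and WT CFC (0.23 to 0.50) and of CBP KIX/KIX homecage with CFC (0.18 to 0.37). Numbers were taken as pairs there, from the data alone, and not between genotypes. Replicate number goes with depth in RNA-Seq 2, so these r need not mark paired mice. The main fits had no replicate block. Lists of well-known and other rapid activity-regulated genes, family relatives, AHR and HSF1 pathway genes, cell type markers and the 7 genes were chosen with earlier results of these data known. The scripts were run on simulated counts that held no factors of unwanted variation and no outlying library. That run therefore does not check how the RUVr fits deal with either. No library was left out of the reported fits unless stated.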

Additional observations from a re-analysis of the deposited data

Results flagged for a closer look

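Dixon's ratio was computed for each of the 7 genes in each group of 4 libraries, as the gap between an extreme library and its neighbour divided by the range. In the CBP KIX/KIX homecage mice replicate 3 was past the critical value for *Tiparp* (52.5 CPM, ratio 0.840), *Ier2* (16.0 CPM, 0.964) and *Rasl11b* (66.9 CPM, 0.903). About 1 in 20 genes passes by chance, and 5.44% of 18851 genes did in that group. The library was kept, and values of the 7 genes in comparisons that include it are given with and without it. A sample swap, handling of the mouse before death and the dissection are possible sources, and none of them was tested.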

How the results depend on the processing

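Some of the counts and values that moved over the alternatives are given here. The members were chosen on values of the WT libraries, which most comparisons share, so the counts of members support nothing. The members called from homecage to training in WT mice over both experiments were 5, with 229 genes. They were 3 with 2 RUVr factors (103 genes), 1 without RUVr factors (9 genes) and 1 with a replicate block and no RUVr factors (12 genes). The genes called were 855 with DESeq2, 50 with GC-content normalization, 139 with TMM normalization, 141 without a filter and 930 with a replicate block (6 members). Over the fits that each lacked 1 library they ranged from 34 to 2277, and the members from 3 to 5. *Ier5* ranged from -0.02 to 0.05. With 1 library left out *Midn* ranged from 0.10 to 0.23.

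After MWM in WT mice DESeq2 called 80 genes and 3 members, the fit without a filter 131 and 3, and the replicate block 1 gene. Leaving out 1 library gave 0 to 2418 genes and 0 to 2 members. *Csrnp1* ranged from -0.23 to 0.13, *Ier5* from -0.09 to 0.03 and *Ier2* from -0.01 to 0.42 over the alternatives, so all 3 had both signs. After CFC in WT mice *Ier5* ranged from -0.02 to 0.13, and the fit of only the groups compared called 21 genes and 3 members. After CFC in CBP KIX/KIX mice DESeq2 called 300 genes, the fit without a filter 55, the groups compared alone 2 and the replicate block 4. The fits without 1 library gave 0 to 999 genes and 0 to 1 members. Both signs were seen there for *Tiparp* (-0.42 to 0.53), *Arl5b* (-0.26 to 0.19), *Ier2* (-0.20 to 0.89), *Csrnp1* (-0.14 to 0.34), *Midn* (-0.18 to 0.26) and *Rasl11b* (-0.15 to 0.08), the positive end of each without homecage replicate 3.

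For genotype after learning the fits called 172 genes with 2 RUVr factors, 936 with DESeq2, 320 without a filter, 252 with GC-content normalization (1 member), 2787 with a replicate block (5 members, *Ier2* and *Ier5* added), 4 without RUVr factors (0 members) and 8 with a replicate block and no RUVr factors (0 members). Their count ranged from 234 to 1023 over the fits that lacked 1 library, and that of the members from 1 to 5. The block changed no member's call within an experiment. *Tiparp* was at -0.02 with GC-content normalization and ranged from -0.04 to 0.07 with 1 library left out. *Arl5b* ranged from -0.15 to -0.08 over the alternatives that kept all libraries. For genotype after MWM, DESeq2 and the fit without a filter each called 7 genes and the groups compared alone 3. With 1 library left out *Tiparp* ranged from 0.04 to 0.33 there and *Csrnp1* from -0.25 to -0.08. *Ier2* ranged from -0.35 to -0.14 and *Ier5* from -0.28 to -0.10. For genotype after CFC, DESeq2 called 4 genes and the groups compared alone 1.

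For genotype in the homecage DESeq2 called 58 genes, the fit without a filter 17, the groups compared alone 2 and the replicate block 3. With 1 library left out the genes ranged from 1 to 445 and the members from 0 to 1, *Ier2* from -0.03 to 1.06, *Csrnp1* from -0.03 to 0.44, *Midn* from -0.03 to 0.40 and *Rasl11b* from -0.06 to 0.17. For the interaction of genotype and CFC DESeq2 called 1 gene, and with 1 library left out the genes ranged from 0 to 63. For the difference of the WT responses 3 RUVr factors gave 176 genes and 2 members, DESeq2 29 genes, TMM normalization 1, no filter 7 and the replicate block 6. With 1 library left out the genes ranged from 0 to 892, the members from 0 to 3, *Tiparp* from -0.23 to 0.10 and *Rasl11b* from -0.45 to -0.19.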

Other observations

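The genes were chosen on measured values of these libraries, so their rise with learning carries no test, and comparisons that share the WT libraries lean the same way. Every comparison of the genotypes includes WT libraries. Groups hold 3 or 4 libraries, and CBP KIX/KIX homecage mice were sequenced in RNA-Seq 2 only. Levels are of bulk tissue 1 h after training, so neither cell type nor time course was measured. No protein was measured.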
